A study of Mus musculus with 4 samples.

Results

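Translation initiation factors are the proteins that bring the initiator tRNA, the small ribosomal subunit and a capped mRNA together at a start codon. eIF2 delivers the initiator tRNA and is recharged with GTP by eIF2B, eIF3 is the large scaffold on the small subunit, eIF4F binds the cap and opens the mRNA leader, and eIF5 and eIF5B complete the joining of the large subunit. Cells that extend protrusions carry ribosomes and selected mRNAs into them, so the place of the mRNAs for the initiation machinery itself is of interest in migrating fibroblasts. The members described here are the 120 probe sets, for 43 of 18194 genes, out of 45101 probe sets on the array, whose single gene symbol in the platform annotation begins with Eif and a digit from 1 to 6. The Eif2ak kinases were left out by that rule, and 6 further probe sets that name an initiation factor together with another gene were not used. The rule uses gene symbols and no measured value, although the members were chosen with earlier results of these data known.

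RNA was taken from NIH/3T3 cells, an established mouse fibroblast line grown in medium with 10% calf serum. Cells starved of serum overnight spread for 2 h on a porous membrane coated with fibronectin, and LPA (lysophosphatidic acid), a lipid that draws fibroblasts to migrate, was placed below it at 150 ng/ml for 1 h. After fixation in 0.3% formaldehyde, pseudopodia were scraped from the lower face and cell bodies from the upper face, so both groups came from LPA-stimulated cells of the same line without any genetic change. Each fraction has 2 arrays, 4 in all. The submitters call the samples independent without naming separate cultures, and p-values here reflect only how far these arrays vary. Each fraction is a wiped membrane face and not a pure preparation, and unstimulated cells were not analysed here.

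The value per probe set is a MAS5 signal, an intensity on a linear scale. Both fractions expressed fibroblast markers (9 of 10 genes kept, with summed signals of 138987 and 142939 in cell bodies against 130575 and 139079 in pseudopodia), and none of the 3 measured blood markers was kept. Of 5 epithelial markers Epcam, Cdh1 and Krt8 were kept, and the whole list summed to 754.4 and 828.4 in cell bodies against 598.9 and 956.1 in pseudopodia. Of the muscle and adipocyte list only Des was kept, with list sums of 109.5 and 56.3 in cell bodies against 126.7 and 118.6 in pseudopodia. The part of these signals in the results was not tested. The recalled protrusion RNAs Kif1c, Pkp4, Rab13, Trak2, Kank2 and Ddr2, chosen partly on these arrays, summed to 24423.1 and 22856.3 in pseudopodia against 6349.9 and 6328.4 in cell bodies. The nuclear RNAs Neat1, Malat1 and Meg3 summed to 5460.3 and 6362.4 in cell bodies and to 1198.0 and 2514.5 in pseudopodia. Neat1 and Malat1 carried that sum, and Meg3 overlapped between the fractions (45.4 and 82.4 against 72.3 and 41.7). Since the protrusion RNAs were chosen partly on these arrays, their separation is no independent check.

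Differences are given as log2 of pseudopodia minus log2 of cell body on scaled signal + 32, with the SE of the limma fit and n = 2 arrays per fraction throughout. This scale understates changes of dim probe sets. Every array was scaled to the same total, so a difference is relative to the RNA of its fraction, and fewer contributing cells or less of an RNA per cell cannot be told apart. A probe set was kept for testing when its mean log2 signal reached the median of all, which left 94 of the 120, from 39 genes. The 26 left out reached a signal of at most 57.7 and included every probe set of Eif2s3y, Eif4a3, Eif4e3 and Eif5a2. No probe set with a single symbol named Eif2s1, the regulated alpha subunit of eIF2, or Eif4g1, the main eIF4G scaffold, so neither is described here. A probe set was called at a limma adjusted p below 0.05 over 22519 probe sets.

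The RNAs of Eif3a and Eif3e, subunits of the eIF3 core, and of Eif2a, which can carry initiator tRNA to the ribosome without eIF2, had signals 1.96 to 2.40 times higher in pseudopodia than in cell bodies on every called probe set. These 3 genes held all 5 called probe sets, 5 of 94 kept or 5.32%, against 1.08% of all probe sets called higher. No member was called lower by limma, against 3.32% of all probe sets. At an unadjusted limma p under 0.05, 31 members were higher and 2 lower, 35.1% of the members against 22% of all probe sets. As higher, 8.66% of all probe sets reached that level. Among all 94, 72 or 76.6% had positive differences, against 47.7% of all probe sets. The median stood at 0.28, which is 0.31 above the median of all probe sets (0.31 and 0.37 above it in the replicate 1 and replicate 2 pairs of arrays). Of the 22 probe sets with negative differences, 5 belonged to eIF2B and 3 to Eif5. The calls rest on few arrays: without cell body replicate 1 or 2 no member, nor any other probe set, was called. The median of the members then stood 0.31 and 0.33 above that of all probe sets. Without pseudopodia replicate 1 that median stood 0.40 above, and without pseudopodia replicate 2 it stood 0.26 above. The calls also depend on the model, with 1 call of 120 when dim probe sets were tested too (0.833%, against 0.0866% of all). Without the variance trend no probe set of any kind was called. In that fit 19 members (20.2%) had an unadjusted p under 0.05, against 19.9% of all probe sets.

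**Figure D1:**
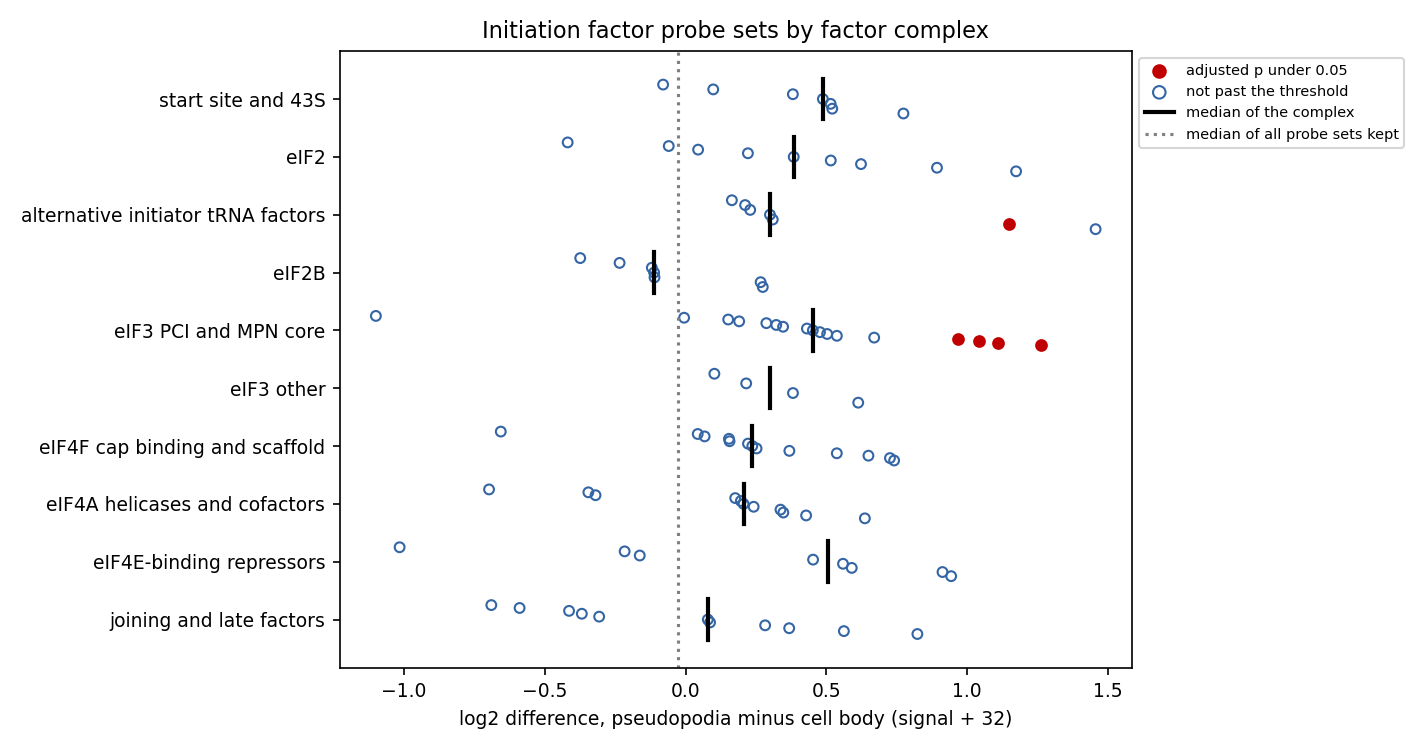
Log2 difference between pseudopodia and cell bodies (horizontal axis) for the 94 initiation factor probe sets kept, by factor complex (vertical axis). Filled red points passed an adjusted p of 0.05, open points did not, black bars are medians of the complexes and the dotted line is the median of all probe sets kept; the 5 red points belong to the eIF3 core and to Eif2a, and only eIF2B has its median below the dotted line.

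In 58 members the fractions were separated on all arrays. In 49 of 94 (52.1%) both pseudopodia arrays lay above both cell body arrays, against 24.8% of all probe sets, and in 9 (9.57%) they lay below, against 28.2%. When every pseudopodia array had to differ by 1.5-fold or more from every cell body array, 10 members (10.6%) were higher, against 2.79% of all probe sets, and 1 (1.06%) was lower, against 7.86%. The 10 were the 5 called probe sets, the other kept Eif2a probe set, and 1 each of Eif1a, Eif2s2, Eif4ebp1 and Eif4g2. With 1 probe set per gene, the brightest, 32 of 39 genes had positive differences and Eif2a, Eif3a and Eif3e passed as higher with adjustment over genes (7.69%, against 1.81% of all genes). With the replicate number, which also marks the scan day, as a block, 29 members from 18 genes were higher (30.9%, against 6.84% of all probe sets). None was called lower, against 11.3% of all probe sets. With the block 48 members (51.1%) had an unadjusted p under 0.05, 41 higher and 7 lower. Of all probe sets 30.3% reached that level, and 12.5% did so as higher. That fit leaves 1 residual degree of freedom, so its p-values rest mostly on the spread shared by all probe sets.

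The position of these values depends on how arrays are made comparable. Scaling on the spiked hybridization controls put the median of all probe sets at -0.32, and 44 of 94 members then had positive differences and none was called. In that setting 0.24% of all probe sets were called higher and 6.69% lower, and 13.8% of members (13), against 23.3% of all, had an unadjusted p under 0.05. The median member stood 0.30 above the median of all. Quantile normalization left 67 positive values and the same 5 calls (5.32%, against 0.875% of all called higher), with the median 0.19 above. Centring on medians moved the median of all probe sets to 0.13, with 78 positive values and 8 calls (8.51%, against 1.71%). Statements of direction below therefore hold relative to the total signal of each fraction, and each complex is given with its count or median on hybridization controls.

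The beginnings of several of these RNAs are shown because mRNAs for ribosomal proteins and some translation factors start with a terminal oligopyrimidine (TOP), a C followed by a run of C and T that lets growth signals control their translation. RefSeq gene starts (GRCm38.p6) were listed for 34 of the 43 genes. A start was taken as TOP-like where its first base was C and at least 4 pyrimidines followed, which held for 2 of the 34 genes (5.88%), against 3.01% of 27025 genes in the table. Each line gives 12 bases before the start and 18 from it, 5′ to 3′, with capitals for the pyrimidine run that begins at the first transcribed base.
Eif3f, chr7:108934403-108934432, plus strand: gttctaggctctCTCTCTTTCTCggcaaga
Eif2s3x, chrX:94212634-94212663, minus strand: ccgagcattttcCTTTTCTCTCCgagcaag
Eif3l, chr15:79075211-79075240, plus strand: cggagttcttctTCCgctctctcccacggg
Eif3a, chr19:60790676-60790705, minus strand: ggctcgggcggcggcgctgccgccgcgagg
Eif2a, chr3:58525809-58525838, plus strand: tggactccgcccgctccggagagggagggc
Eif2s2, chr2:154892889-154892918, minus strand: gtaaggttggctTTactgtacgcctgcgct
Eif4b, chr15:102073761-102073790, plus strand: cttcccgtcggaCgccgcgccaccccctcg
Eif3f and Eif2s3x begin with runs of 11 pyrimidines. Of the called genes, neither Eif3a nor Eif2a begins with one at the listed start, and Eif3e had no listed start. From background knowledge, however, Eif3a and Eif3e are TOP mRNAs. Eif4b, also known for TOP control, has a single C at its listed start, so the listed starts need not be those used in these cells. These matches are a description of the letters and no evidence of control.

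eIF3 held 4 of the 5 calls. Of its 21 kept probe sets, from 11 genes, 19 had positive values, 4 passed as higher and none as lower, and the median was 0.43. In 17 of the 21 the difference was positive in both array pairs. Quantile normalization brought its median to 0.20, and scaling on hybridization controls to 0.10 with 13 positive values.

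Eif3e, also known as Int6 from an integration site of mouse mammary tumour virus, is a PCI-domain subunit of the eIF3 core. Its probe set 1439268_x_at had signals of 4530.5 and 4966.0 in cell bodies against 10078.5 and 9481.5 in pseudopodia. Its brightest probe set, 1434523_x_at, had 5866.5 and 6683.9 against 12045.0 and 12498.7. Both pseudopodia arrays lay far above both cell body arrays on each of these, and the arrays within a fraction lay close together. The differences were 1.04 ± 0.15 (2.06-fold, limma adjusted p = 0.0223), the lowest p of any member, and 0.97 ± 0.15 (1.96-fold, adjusted p = 0.0242). The third probe set, 1460432_a_at, had 6028.7 and 6242.1 against 10918.7 and 8739.0, again without overlap, and at 0.67 ± 0.16 did not pass (adjusted p = 0.0636; 0.00204 with the replicate block). Under the array maker's naming, _x_at marks probe sets in which some probes may also match other transcripts, which applies to both called ones. Quantile normalization lowered the called differences to 0.82 and 0.67 and kept both calls.

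Eif3a is the largest eIF3 subunit and organizes the complex. Probe set 1416659_at had signals of 825.0 and 703.9 in cell bodies against 1948.9 and 1753.4 in pseudopodia, and 1448425_at had 889.1 and 1008.7 against 2022.9 and 2102.9. On both, every pseudopodia array was above every cell body array by more than 1.5-fold, with differences of 1.26 ± 0.20 (2.40-fold, adjusted p = 0.0245) and 1.11 ± 0.19 (2.16-fold, adjusted p = 0.0283). These are unsuffixed probe sets, and their size was alike in both array pairs (1.22 and 1.30 for the first, 1.17 and 1.05 for the other). A dim probe set of the same gene, 1416660_at, went the other way, with 54.5 and 48.2 in cell bodies against 11.3 and 20.1 in pseudopodia. Those pseudopodia signals lay under the array medians of 31.0 and 33.3, so this probe set was kept through its cell body signals and no size is given. It did not pass (adjusted p = 0.150). It was the only member lower by at least 1.5-fold in every array pair, which rests on those signals. Which stretch of the RNA it reads was not analysed here.

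The other subunits of the eIF3 core had smaller differences and none passed. Eif3f, an MPN-domain subunit with a TOP-like start, had signals of 11584.7 and 12688.0 in cell bodies against 16347.3 and 18952.2 in pseudopodia. Eif3h, the other MPN-domain subunit, had 13012.0 and 15613.4 against 19120.1 and 19320.8, and Eif3k, a small peripheral subunit, had 5632.7 and 5396.2 against 7622.2 and 7474.0. All 3 were higher in pseudopodia without overlap of the fractions. Their differences were 0.54 ± 0.14, 0.43 ± 0.14 and 0.45 ± 0.15, with adjusted p of 0.0769, 0.131 and 0.124 (0.00334, 0.0150 and 0.0226 with the replicate block). Eif3c, a central scaffold subunit, stood between 0.29 and 0.48 on its 4 probe sets, 3 of them without overlap. Eif3l was close to 0 on both probe sets, at 0.15 and -0.01. Eif3m stood at 0.50 ± 0.30 on its brighter probe set, but that value came from replicate 1 (1.04 against -0.04 in replicate 2), where signals were 757.2 and 866.9 in cell bodies against 1577.0 and 844.4 in pseudopodia.

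The remaining eIF3 subunits, Eif3b, Eif3d and Eif3i, had positive differences on all 4 of their probe sets, and none passed. Eif3i, a WD-repeat subunit, had signals of 11065.1 and 12645.2 in cell bodies against 15312.2 and 15514.1 in pseudopodia on its brightest probe set. The difference there was 0.38 ± 0.14 (adjusted p = 0.161), and 0.61 ± 0.21 (adjusted p = 0.147) on the other probe set; with the block both passed (adjusted p = 0.0320 and 0.00241). Eif3d, which can itself contact the cap of some mRNAs, stood at 0.22 ± 0.15, and Eif3b, which carries an RNA recognition motif, at 0.10 ± 0.17. On hybridization controls 2 of these 4 probe sets were positive, with a median of -0.035. Quantile normalization brought Eif3d to -0.12, and scaling on hybridization controls to -0.12.

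**Figure D2:**
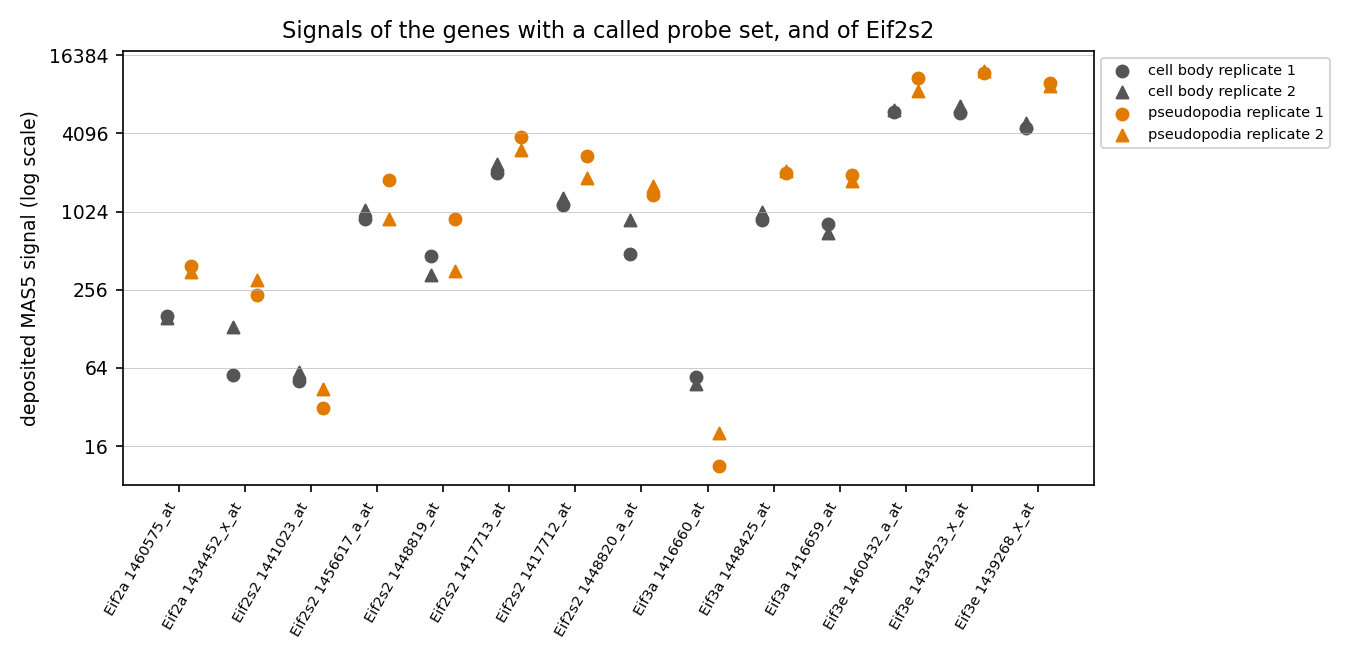
Deposited MAS5 signals on a log scale (vertical axis) of every kept probe set of Eif2a, Eif2s2, Eif3a and Eif3e on the 4 arrays, with circles for replicate 1 and triangles for replicate 2, grey for cell bodies and orange for pseudopodia. The pseudopodia arrays of all 3 Eif3e probe sets, of the 2 bright Eif3a probe sets and of both Eif2a probe sets lie above the cell body arrays, and the dim Eif3a and Eif2s2 probe sets lie below.

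Eif2a encodes a single-chain factor and should not be confused with the alpha subunit of eIF2, which is encoded by Eif2s1. Probe set 1460575_at had signals of 160.8 and 155.6 in cell bodies against 391.1 and 349.5 in pseudopodia. The fractions did not overlap, and the arrays within each were close. The difference was 1.15 ± 0.22 (2.21-fold, adjusted p = 0.0388). The dimmer probe set 1434452_x_at had 56.7 and 131.6 against 235.2 and 305.5, which at 1.46 ± 0.36 was the highest value of any member but did not pass (adjusted p = 0.0668; 0.000909 with the block), and its cell body arrays lay far apart. Eif2d, another factor that can place initiator tRNA and also acts in ribosome recycling, had 5 kept probe sets between 0.16 and 0.31, none of which passed. On its brightest probe set the signals were 1595.0 and 1968.9 in cell bodies against 1854.8 and 2609.9 in pseudopodia, with overlap of the fractions. Of the 7 kept probe sets of Eif2a and Eif2d, all positive, 3 were positive on hybridization controls, with a median of -0.021.

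In the eIF2 complex itself 7 of 9 kept probe sets were positive, with a median of 0.38, and none passed (5 positive on hybridization controls, median 0.057). Eif2s2, the beta subunit, had 6 kept probe sets, of which 5 were positive and none passed. The brightest, 1417713_at, had signals of 2047.7 and 2387.7 in cell bodies against 3851.5 and 3026.2 in pseudopodia, and 1417712_at had 1143.7 and 1295.3 against 2763.1 and 1870.6. The fractions did not overlap on these, with differences of 0.62 ± 0.20 (adjusted p = 0.116) and 0.89 ± 0.23 (adjusted p = 0.0723). Probe set 1448820_a_at stood higher still, at 1.17 ± 0.29 (adjusted p = 0.0677), with 478.8 and 875.8 against 1365.4 and 1609.5. All 3 passed with the replicate block (adjusted p = 0.0134, 0.00256 and 0.000421). The replicate 2 pair gave lower values than the replicate 1 pair on these 3 probe sets (0.34 against 0.91, 0.52 against 1.26, and 0.87 against 1.48). Probe sets 1448819_at and 1456617_a_at overlapped between the fractions, at 0.52 ± 0.41 and 0.38 ± 0.32. In the replicate 2 pair they stood at 0.11 and -0.22, against 0.92 and 0.99 in replicate 1. The dim 1441023_at was lower in pseudopodia without overlap, with 51.1 and 59.4 against 31.2 and 44.0 (-0.42 ± 0.34).

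Eif2s3x, the X-linked gamma subunit with a TOP-like start, was on both sides of 0 among its 3 probe sets. The brightest, 1423744_x_at, had 2266.1 and 1736.1 in cell bodies against 2953.1 and 1223.8 in pseudopodia. The pseudopodia arrays enclosed the cell body arrays, and the difference was -0.06 ± 0.38 (adjusted p = 0.950). It was 0.38 in replicate 1 and -0.50 in replicate 2. As a complex, eIF2 had a median of 0.91 in the replicate 1 pair and 0.04 in the replicate 2 pair over 9 kept probe sets. Without pseudopodia replicate 1 it stood at -0.08 relative to all probe sets.

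eIF2B, the exchange factor that reloads eIF2 with GTP, had mostly negative values. Of 7 kept probe sets from its 5 genes, 2 were positive and none passed, with a median of -0.11 (0.07 in replicate 1 and -0.29 in replicate 2). After median centring 5 of the 7 were positive, on hybridization controls none was (median -0.44), and without cell body replicate 2 the complex stood at 0.06 relative to all probe sets. Eif2b1, the alpha subunit, had signals of 490.3 and 520.5 in cell bodies against 610.1 and 618.5 in pseudopodia, without overlap, and a difference of 0.27 ± 0.20 (adjusted p = 0.479). Eif2b2, the beta subunit, was positive on its brightest probe set (0.27 ± 0.16) and negative on the other 2 (-0.23 and -0.37). Eif2b3, Eif2b4 and Eif2b5 stood at -0.11, -0.12 and -0.11. The difference between eIF2B and the other complexes was not tested.

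The factors that act on the small subunit at the start site were positive on 6 of 7 kept probe sets, with a median of 0.49, and none passed (5 positive on hybridization controls, median 0.16). Eif1ax, an X-linked gene for eIF1A, which helps the small subunit to scan, had signals of 3367.3 and 3274.5 in cell bodies against 4972.9 and 4578.5 in pseudopodia on its bright probe set. Eif1a, the second eIF1A gene, had 372.8 and 432.6 against 735.0 and 662.7 on its brighter probe set. The fractions did not overlap on either, with differences of 0.52 ± 0.16 (adjusted p = 0.109) and 0.77 ± 0.21 (adjusted p = 0.0836), and both passed with the block (adjusted p = 0.0159 and 0.0127). The dim probe set of Eif1ax stood at -0.08 ± 0.40. Eif1ad, an eIF1A-domain protein, stood at 0.49 and 0.38, and Eif1b, a paralogue of eIF1, at 0.10 with overlap of the arrays.

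**Figure D3:**
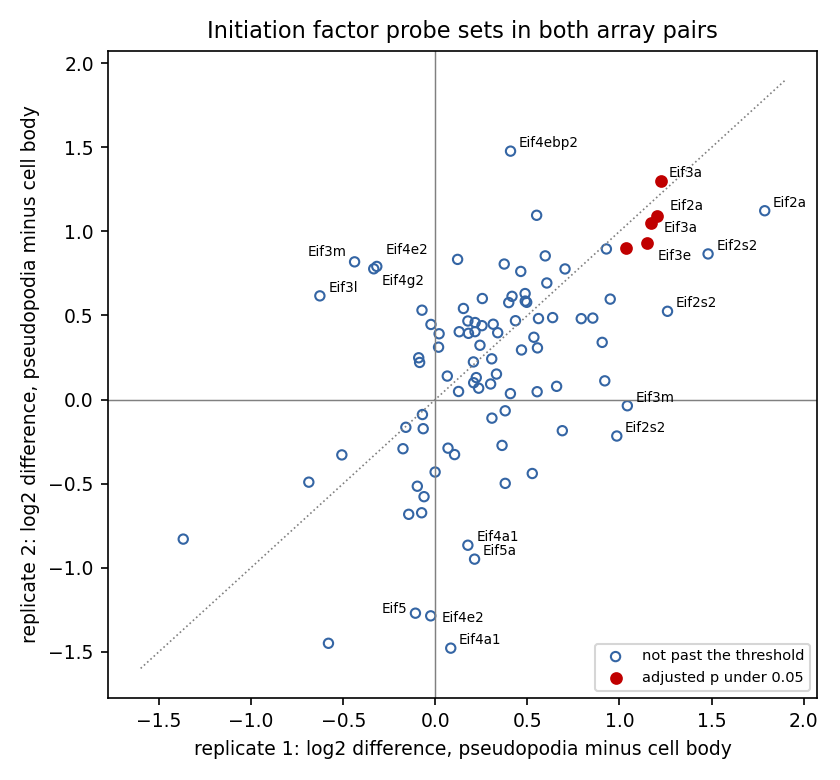
Log2 difference between pseudopodia and cell bodies in the replicate 1 arrays (horizontal axis) and the replicate 2 arrays (vertical axis) for each of the 94 kept initiation factor probe sets, red where the adjusted p was under 0.05, with a dotted line of equal values. Called probe sets lie near the dotted line between 0.90 and 1.30 in both pairs, and probe sets of Eif4a1, Eif5a, Eif5 and Eif4e2 lie near 0 in replicate 1 and between -0.87 and -1.48 in replicate 2.

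The cap-binding and scaffold group was positive on 12 of 13 kept probe sets, with a median of 0.24 and none called. In 6 of the 13 the difference was positive in both array pairs, against 33% of all probe sets. The medians were 0.49 in replicate 1 and 0.22 in replicate 2. On hybridization controls 6 of the 13 were positive and the median was -0.027. Eif4g2, also called DAP5, resembles the eIF4G scaffold but lacks the part that binds eIF4E. Its probe set 1415863_at had signals of 1506.7 and 1403.9 in cell bodies against 2465.2 and 2416.8 in pseudopodia. The fractions lay well apart, and the difference of 0.74 ± 0.18 just missed the threshold (adjusted p = 0.0589; 0.00357 with the block). It passed when probe sets with suffixed names were left out (adjusted p = 0.0388) and after median centring (adjusted p = 0.0415). The brightest Eif4g2 probe set stood at 0.54 ± 0.16 (adjusted p = 0.109), and its other 2 at 0.37 and 0.22.

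Eif4e, the cap-binding protein, gave no clear difference. Its brightest probe set, 1450908_at, had signals of 1216.8 and 1088.9 in cell bodies against 1759.9 and 798.3 in pseudopodia. One pseudopodia array lay above and the other below both cell body arrays, and the difference was 0.04 ± 0.35 (adjusted p = 0.959). The next probe set, 1423220_at, had 154.1 and 112.7 against 242.8 and 192.1, without overlap, at 0.65 ± 0.27 (adjusted p = 0.207). Eif4e2, a cap-binding relative that represses translation, was higher without overlap on its brightest probe set, 1435803_a_at, with 3980.1 and 4513.9 against 6028.4 and 8174.7. That difference was 0.73 ± 0.19 (adjusted p = 0.0762; 0.00138 with the block). A dim probe set of Eif4e2, 1435804_at, stood at -0.66 ± 0.34 and the other 3 between 0.15 and 0.24. Eif4g3, a further eIF4G gene, had 1 dim kept probe set at 0.25 ± 0.40.

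Among the helicases and their cofactors 8 of 11 kept probe sets were positive and none passed, with a median of 0.21. Quantile normalization brought this group to -0.02 relative to all probe sets, and the other eIF3 subunits to the same value. On hybridization controls 4 of the 11 were positive, with a median of -0.13. Eif4a1, the main helicase that unwinds mRNA leaders, had signals of 7491.4 and 7908.7 in cell bodies against 8945.2 and 12002.5 in pseudopodia on its brightest probe set, 1434985_a_at. Probe set 1430980_a_at had 2685.6 and 2591.4 against 2847.4 and 919.1, and 1427058_at had 5243.9 and 4829.2 against 5929.7 and 2640.6. The 3 probe sets of this gene moved apart on pseudopodia replicate 2 only, where the brightest was the highest of the 4 arrays and the others were the lowest. Their differences were 0.43 ± 0.18 (adjusted p = 0.211; 0.0299 with the block), -0.70 ± 0.45 (adjusted p = 0.410) and -0.35 ± 0.34 (adjusted p = 0.601). Eif4a2, the closely related second helicase, stood at -0.32 ± 0.25, with 2422.5 and 2125.9 against 2321.2 and 1418.6.

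The helicase cofactors were positive throughout. Eif4b, which stimulates the helicase and is a known target of growth signalling, had 8916.9 and 9605.1 in cell bodies against 11229.2 and 10669.7 in pseudopodia on its brightest probe set. The fractions did not overlap on any of its 3 probe sets, with differences of 0.24 ± 0.14, 0.20 ± 0.15 and 0.64 ± 0.21 (adjusted p = 0.357, 0.480 and 0.136; the last passed with the block at 0.00593). The first 2 turned to -0.10 and -0.09 after quantile normalization and to -0.09 and -0.14 on hybridization controls. Eif4h, a smaller cofactor of the same helicase, stood between 0.18 and 0.35 on 4 probe sets, all without overlap.

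The eIF4E-binding repressors had a median of 0.51 over 8 kept probe sets, 5 of them positive, and none passed. The median was 0.24 after quantile normalization and 0.17 on hybridization controls, with 5 positive in both. Eif4ebp1, the repressor that mTOR releases from eIF4E by phosphorylation, had signals of 7694.7 and 8495.3 in cell bodies against 10796.2 and 13159.7 in pseudopodia on 1434976_x_at. On 1417562_at it had 5395.8 and 5647.7 against 7826.8 and 7305.2, and on the dim 1417563_at it had 54.8 and 71.5 against 118.8 and 146.8. All 3 were higher in pseudopodia without overlap, at 0.56 ± 0.16, 0.45 ± 0.15 and 0.91 ± 0.28 (adjusted p = 0.0903, 0.128 and 0.111; 0.00412, 0.0237 and 0.0364 with the block). Eif4enif1, which carries eIF4E into the nucleus, stood at -0.16 ± 0.23.

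Eif4ebp2, the second repressor, had 4 kept probe sets that did not go one way. Probe set 1436158_at had signals of 1695.7 and 1084.7 in cell bodies against 2255.9 and 3049.5 in pseudopodia, and 1417084_at had 1292.5 and 753.0 against 1680.1 and 1328.4. Both were higher without overlap, at 0.94 ± 0.26 (adjusted p = 0.0862) and 0.59 ± 0.28 (adjusted p = 0.273), and both passed with the block (adjusted p = 0.00348 and 0.0293). Probe set 1437733_at, in contrast, had 888.5 and 276.0 against 887.9 and 200.5, which separated the replicates and not the fractions. It stood at -0.22 ± 0.71. The dim 1455575_at had 90.0 and 36.2 against 54.9 and 3.1, with overlap of the fractions, at -1.02 ± 0.65 (adjusted p = 0.409). Its signal on pseudopodia replicate 2 lay under the array median of 33.3, so that size is uncertain.

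The factors of subunit joining and later steps were split, with 6 of 11 kept probe sets positive, a median of 0.08 and none called. Eif5b, the GTPase that joins the large subunit, had signals of 451.5 and 398.6 in cell bodies against 668.6 and 870.3 in pseudopodia. It was higher without overlap at 0.82 ± 0.23 (adjusted p = 0.0841; 0.00956 with the block), and its dimmer probe set stood at 0.37. Eif5, which triggers GTP hydrolysis by eIF2, had 5 probe sets from -0.69 to 0.56. The probe set 1415723_at had 561.5 and 675.4 against 882.1 and 953.2, at 0.56 ± 0.21 (adjusted p = 0.168; 0.0465 with the block). Its probe set 1456256_at had 228.2 and 232.9 against 135.7 and 161.0, at -0.59 ± 0.23 (adjusted p = 0.197). Of its other 3 probe sets, 1454663_at and 1433631_at were also lower in pseudopodia without overlap, at -0.69 and -0.41, and the brightest stood at 0.08. In all, 3 of the 5 Eif5 probe sets were lower without overlap and 1 was higher, and none passed.

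Eif5a, the hypusine-carrying factor that acts mainly in elongation, had signals of 14689.1 and 15068.8 in cell bodies against 17381.0 and 18850.7 in pseudopodia on 1451470_s_at. On 1437859_x_at it had 6258.4 and 6255.4 against 7257.5 and 3230.7. The first was higher without overlap at 0.28 ± 0.13 (adjusted p = 0.253), and the other, at -0.37 ± 0.33 (adjusted p = 0.569), was low on pseudopodia replicate 2 only. Eif6, which keeps the large subunit from binding too early, had 6559.3 and 6906.5 in cell bodies against 6128.8 and 4825.0 in pseudopodia, lower without overlap at -0.31 ± 0.17 (adjusted p = 0.344). Its other probe set stood at 0.09. After quantile normalization 4 of the 11 probe sets of this group were positive and its median stood at -0.11 relative to all probe sets; on hybridization controls 3 were positive.

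**Figure D4:**
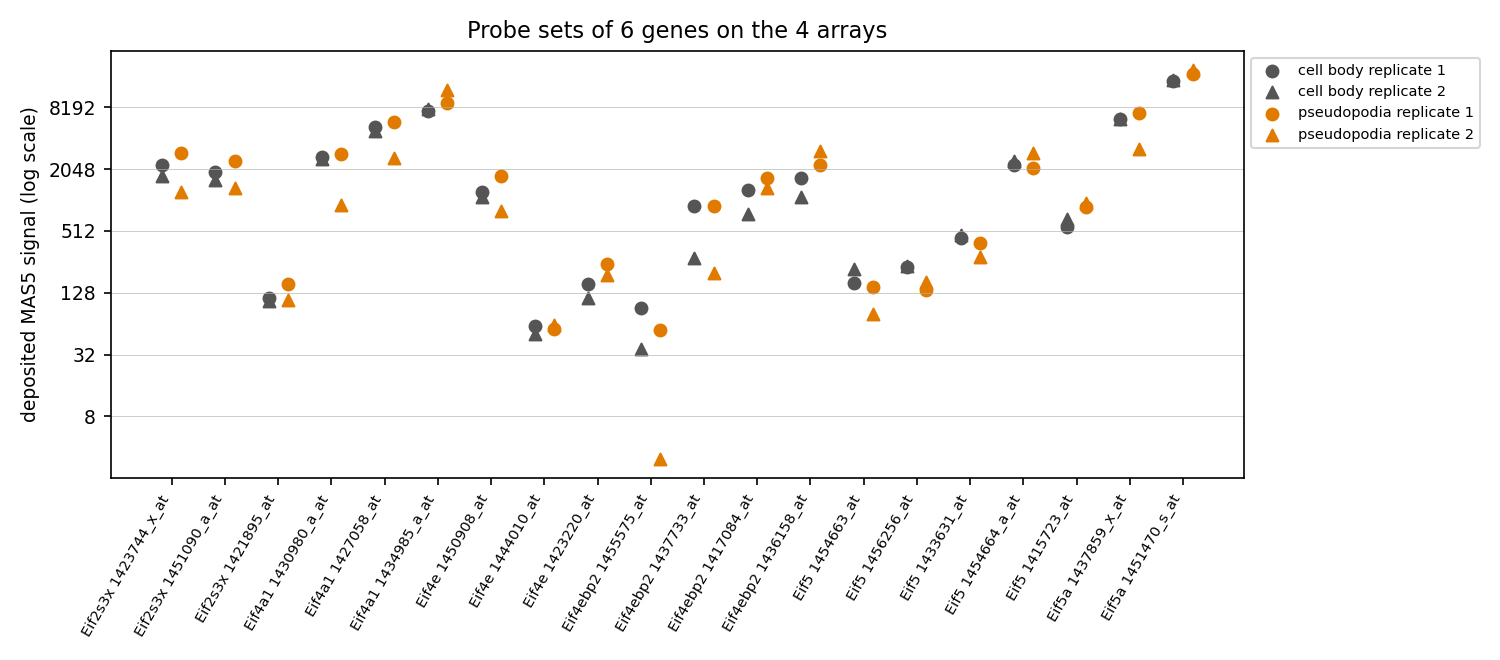
Deposited MAS5 signals on a log scale (vertical axis) of every kept probe set of Eif2s3x, Eif4a1, Eif4e, Eif4ebp2, Eif5 and Eif5a on the 4 arrays, with circles for replicate 1 and triangles for replicate 2. Probe sets of Eif2s3x, Eif4a1, Eif4e and Eif5a have pseudopodia replicate 2 (orange triangles) as the lowest array, and the brightest probe sets of Eif4a1 and Eif5a have it as the highest.

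The pseudopodia replicates differed by more than the cell body replicates, among the members (SD of the log2 difference between replicates 0.608 against 0.362) as among all probe sets (0.580 against 0.431). On 8 of 94 probe sets (8.51%) pseudopodia replicate 2 was lower than replicate 1 by at least 1 log2 unit, against 4.33% of all probe sets, and on 2 (2.13%, against 4.09%) it was higher by as much. Between the cell body arrays 2 members (2.13%, against 1.68%) were lower in replicate 2 by as much and 1 (1.06%, against 1.56%) was higher. The 8 belonged to Eif2s2, Eif2s3x, Eif4a1, Eif4e, Eif4ebp2 and Eif5a, and both Eif4ebp2 probe sets were also lower in replicate 2 of the cell bodies, by -1.63 and -1.02. Beside this stands a sign of RNA integrity: the 3′ to 5′ signal ratio of the beta-actin control was 1.55 and 1.89 in cell bodies against 1.77 and 3.41 in pseudopodia, highest on the same array. For Gapdh it was 0.919 and 0.946 against 0.960 and 1.01. The part of RNA integrity in these values was not tested. Of 26 genes with more than 1 kept probe set, 14 had all of them on one side of 0, and in 6 genes (Eif2s2, Eif3a, Eif4a1, Eif4e2, Eif4ebp2 and Eif5) probe sets lay more than 1 log2 unit apart.

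The differences of all probe sets varied with their signal, a check added after the data were seen. When probe sets were ranked by mean signal into 4 equal bins, the brightest bin had a median difference of 0.10, with 58.7% positive, whereas the other bins stood between -0.04 and -0.09. In that bin were 58 of the 94 members, with a median of 0.35, 47 positive and 4 called (6.9%, against 2.88% of all its probe sets). The members had a higher median than all probe sets in each of the 4 bins over both array pairs, but in the dimmest bin, with 8 members, their median in the replicate 1 pair was -0.33, against -0.03 for all.

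**Figure D5:**
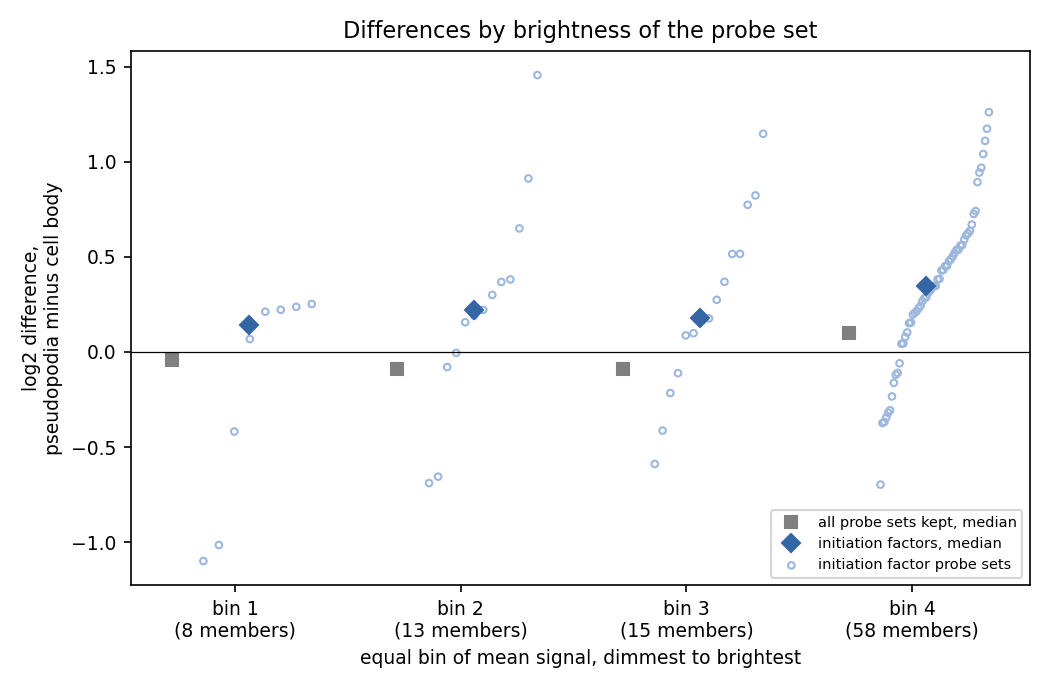
Log2 difference between pseudopodia and cell bodies (vertical axis) in 4 equal bins of all kept probe sets ranked by mean signal (horizontal axis), with grey squares for the median of all probe sets, blue diamonds for the median of the initiation factors and open circles for each initiation factor probe set. From dimmest to brightest the squares stand at -0.04, -0.09, -0.09 and 0.10, and the diamonds stand at 0.14, 0.22, 0.18 and 0.35.

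Of the members, 6 genes known from background knowledge as TOP mRNAs had a kept probe set. These (Eif2s3x, Eif3a, Eif3e, Eif3f, Eif3h and Eif4b) had a median of 0.48 on their brightest probe sets, 5 of them positive, and the other 33 genes a median of 0.31, with 27 positive. The 2 genes with a TOP-like listed start stood at 0.54 (Eif3f) and -0.06 (Eif2s3x), and the 29 measured genes with another listed start at a median of 0.28. No test was made between these groups.

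Genes that regulate initiation or follow it had values on both sides of 0. A list of other translation genes had 91 kept probe sets from 47 genes, of which 47 were positive, 2 passed as higher (2.2%, against 1.08%) and 4 as lower (4.4%, against 3.32%; in either direction 4.4% of all probe sets were called). Its median stood 0.06 above that of all probe sets. Those called higher were Rps6, the ribosomal protein that S6 kinase phosphorylates, with signals of 1718.5 and 1983.8 in cell bodies against 3573.0 and 3681.5 in pseudopodia (0.97 ± 0.17, adjusted p = 0.0320), and 1 probe set of Eef1d, an exchange subunit of elongation factor 1 (0.86 ± 0.17, adjusted p = 0.0401), whose brightest probe set stood at 0.40 and did not pass.

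The eIF2 kinases and their partners had a median of -0.48 over 19 kept probe sets, 5 of them positive. Those 5 all belonged to the kinases Eif2ak1, Eif2ak2, Eif2ak3 and Eif2ak4, whose other kept probe sets were negative. Every kept probe set of their partners was negative. Gcn1, the activator of the kinase that senses uncharged tRNA, was called lower on 2 dim probe sets. On 1446543_at its signals were 157.2 and 140.6 in cell bodies against 2.6 and 7.5 in pseudopodia (adjusted p = 0.0178). Those pseudopodia signals lay under the array medians of 31.0 and 33.3, so the probe set was kept through its cell body signals and no size is given. On 1440391_at they were 128.3 and 166.5 against 35.7 and 31.0 (-1.72 ± 0.29, adjusted p = 0.0292). Its brightest probe set, with 958.6 and 878.3 against 564.6 and 529.2, did not pass (-0.73 ± 0.20, adjusted p = 0.0826). Eif2ak3, the eIF2 kinase of the endoplasmic reticulum also called PERK, had 748.7 and 560.7 against 342.5 and 168.7 (-1.37 ± 0.34, adjusted p = 0.0658), without overlap. A dim probe set of Gspt1, a termination factor, was also called lower (-1.72 ± 0.27, adjusted p = 0.0259). So was a dim probe set of Rictor, a subunit of mTOR complex 2, with 113.2 and 105.3 against 20.9 and 30.8 (adjusted p = 0.0401). Those Rictor pseudopodia signals also lay under the array medians, so no size is given. The brightest kept probe set of each of these genes did not pass. The cap and poly(A) side of the list stood at a median of 0.29 with 16 of 20 positive and none called. Its Pabpc1, the poly(A)-binding protein, stood at 0.37 on the brightest probe set and at -1.28 on a dim one (137.1 and 112.4 against 24.6 and 66.3), and neither passed (adjusted p = 0.146 and 0.107).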

How the data were processed

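Biotin-labelled RNA of pseudopodia and cell bodies was hybridized to 4 Affymetrix arrays of 1 design, with groups and numbers taken from the titles. Per the submitters' processing notes, the deposited intensity of each probe set is a linear MAS5 signal; its version, detection calls and scaling target are not given in the sources used here. The 4 arrays share a trimmed mean of 250.0 (2% off each end), so they arrived scaled. Subtraction of mismatch probes in MAS5 adds noise to dim probe sets. Each gene's position within the genome and the stretch a probe set reads were not analysed here.

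A trimmed mean of 500 was set for each array, 32 was added and log2 taken. Probe sets whose mean was at or above the median of the 45037 that are not controls were kept (22519). The fractions' difference was fitted in limma 3.58.1 under R 4.3.3 (variance trend, two-sided, Benjamini-Hochberg over probe sets, threshold 0.05), a procedure tested on simulated data. With 2 arrays a fraction, 0.333 is the smallest exact permutation p, so none was run. Arrays of one number share a scan day, per the file headers, and, in the series' design text, an experiment code. The number was therefore also fitted as a block. As a check of this pairing, replicate 2 minus 1 differences in both fractions correlated with r = 0.24 over probe sets.

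Named in full are members past the threshold, the 2 genes of each complex with the largest absolute moderated statistic, 6 genes chosen by role (Eif4e, Eif4g1, Eif4a1, Eif2s1, Eif5a and Eif4ebp1) and genes with kept probe sets over 1 log2 unit apart; of other translation genes, those past the threshold. Other members with values on every array (Eif3f, Eif3h, Eif3k, Eif3m, Eif4a2 and Eif6), Eif2ak3 and Pabpc1 were added after their values were seen. The members, complexes and lists were chosen with earlier results of these data known. RefSeq starts (GRCm38.p6) served for sequences only.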

Additional observations from a re-analysis of the deposited data

How the results depend on the processing

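Under quantile normalization the median of the members stood 0.19 above that of all probe sets, and 0.21 above it when dim probe sets were tested too. The count of members called higher was 8 after median centring, 0 on hybridization controls, 1 with dim probe sets tested, 0 without the variance trend and 3 with 1 probe set per gene. With the replicate block it was 29, and 17 other translation genes were called, against 5 without the block. Of all probe sets 6.84% were called higher and 11.3% lower with the block, against 1.08% and 3.32% without it. Whether other translation genes gained more calls than all probe sets was not tested. Other translation genes called numbered 1 with dim probe sets tested, 1 with 1 probe set per gene and 0 without the trend. Leaving out each array in turn gave 0 to 21 members higher, 0 to 9 lower, a relative median of 0.26 to 0.40 and 0 to 16 other translation genes. A fit that leaves 1 array in a fraction assumes that it varies like the other fraction. Calls among all probe sets fell to none without a cell body array and rose without a pseudopodia array. The counts from these fits are therefore no result about translation genes. A pseudocount of 16 kept the same 5 calls.

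No member called in the main setting turned sign under any alternative run, but only the other scalings could have turned one. On the 5 called probe sets every pseudopodia array lay above every cell body array, so leaving out an array could not. The remaining runs change the pseudocount, the model or the probe sets tested, and not the order of the arrays. Of all 94 kept members, 6 turned on median centring, 11 on quantile normalization, 28 on hybridization controls and 6 to 12 with each array left out. The probe sets listed here are those of the 67 from genes given in full. Median centring turned Eif2s3x 1423744_x_at (0.10) and Eif1ax 1449576_at (0.077). Quantile normalization turned the other eIF3 subunits (-0.021), the helicase group (-0.021) and the joining group (-0.11) relative to all probe sets. Among probe sets it turned Eif2b2 1434538_x_at (-0.025), Eif3d (-0.12), Eif4b 1426378_at (-0.092) and 1426380_at (-0.10), Eif5 1454664_a_at (-0.022), Eif5a 1451470_s_at (-0.073) and Eif1ax 1449576_at (0.041).

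Hybridization controls turned Eif2d 1436724_a_at (-0.021), 1440968_at (-0.021), 1451211_a_at (-0.10) and 1455797_x_at (-0.15), Eif2s3x 1421895_at (-0.069) and 1451090_a_at (-0.29), Eif2b1 (-0.050), Eif2b2 1434538_x_at (-0.066) and Eif3d (-0.12). They also turned Eif4b 1426378_at (-0.14) and 1426380_at (-0.091), Eif4e 1444010_at (-0.19) and 1450908_at (-0.28), Eif4e2 1421985_a_at (-0.18), 1421986_at (-0.027) and 1455108_at (-0.14), Eif4g2 1458431_at (-0.031), Eif5 1454664_a_at (-0.25) and Eif5a 1451470_s_at (-0.051).

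With each array left out in turn, signs turned within these ranges. Relative medians ran from -0.076 to 0.79 for eIF2, from -0.20 to 0.058 for eIF2B and from -0.0004 to 0.21 for the joining group. Eif2d 1437720_at ran from -0.045 to 0.64 and 1451211_a_at from -0.12 to 0.58, Eif2s2 1448819_at from -0.12 to 1.15 and 1456617_a_at from -0.11 to 0.88. Eif2s3x 1421895_at ran from -0.010 to 0.45, 1423744_x_at from -0.69 to 0.57 and 1451090_a_at from -0.39 to 0.48. Eif4a1 1427058_at ran from -0.93 to 0.24 and 1430980_a_at from -1.50 to 0.11, and Eif4ebp2 1437733_at from -1.25 to 0.81. Eif4e 1444010_at ran from -0.035 to 0.17 and 1450908_at from -0.52 to 0.61, Eif4e2 1421986_at from -0.18 to 0.65 and 1455108_at from -0.037 to 0.35, and Eif4g2 1458431_at from -0.40 to 0.84. Eif5 1454664_a_at ran from -0.16 to 0.32, Eif5a 1437859_x_at from -0.95 to 0.21 and Eif1ax 1449576_at from -0.48 to 0.32. The causes were not tested. The number of arrays limits the precision.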
